A study of Homo sapiens with 12 samples.

Results

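The transcripts of 9 ETS transcription factors were followed in 3 multiple myeloma cell lines treated with the BET inhibitor JQ1. The 9 genes are FLI1 and ERG (of the ERG group), ETS1 and ETS2 (the ETS group), ETV1, ETV4 and ETV5 (the PEA3 group), and ETV6 and ETV7 (the TEL group). They are 9 of the 28 ETS family genes looked up among the 60666 gene IDs of the deposited count table. FEV, also of the ERG group, was placed among the other ETS family genes. Of the 9, 8 had a read in at least 1 library and 7 passed the filter on low counts. KMS-11, KMS-12 and RPMI8226 are established human lines of multiple myeloma, a cancer of plasma cells, and the labels give all of them as wild type. Each line was treated with JQ1 at 1 µM for 72 h or with the solvent DMSO at equal volume, with 2 libraries per group and 12 in all. The study's title names inhibition of FLI1, and its design asks how JQ1 acts on genes that become active in myeloma. Each line is a single cell line, and no label says whether its 2 libraries came from separate cultures, so the p-values may rest on technical spread alone.

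ETS factors share a DNA-binding domain that recognises a GGAA core, and the subgroups differ in their partners and in what controls them. FLI1 and ERG drive blood stem cell, megakaryocyte and endothelial programmes, and ETS1 is a lymphoid factor that in B cells restrains differentiation into plasma cells. The PEA3 factors are among the classical transcripts induced by RAS-ERK signalling, their proteins are destroyed through the COP1 ubiquitin ligase, and ETV6 and ETV7 are repressors that polymerise through a pointed domain. JQ1 fills the acetyl-lysine pocket of BET proteins and displaces them from chromatin.

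RefSeq promoter entries (GRCh38.p14) were held for 4 of the 9 genes, ERG, ETS2, ETV1 and ETV6. The 250 bases before an annotated start are shown for 2 genes that are read in some lines only, ETS2 and ETV1, and for ETV6, which is read in every library. Capitals mark the ETS core GGAA on either strand (TTCC on the strand shown), and each sequence runs 5′ to 3′ on the gene's strand.
ETS2 (chr21:38804933-38805182, plus strand): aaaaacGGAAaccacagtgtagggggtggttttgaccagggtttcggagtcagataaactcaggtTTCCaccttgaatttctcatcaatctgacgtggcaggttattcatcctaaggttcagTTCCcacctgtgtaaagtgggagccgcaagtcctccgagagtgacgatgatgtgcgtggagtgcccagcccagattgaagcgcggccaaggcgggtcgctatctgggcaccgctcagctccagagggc
ETV1 (chr7:13991426-13991675, minus strand): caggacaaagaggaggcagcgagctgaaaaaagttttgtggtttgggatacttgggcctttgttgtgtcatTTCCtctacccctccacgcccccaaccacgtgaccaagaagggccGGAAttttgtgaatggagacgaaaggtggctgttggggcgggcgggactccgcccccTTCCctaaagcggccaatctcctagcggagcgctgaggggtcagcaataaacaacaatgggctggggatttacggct
ETV6 (chr12:11649424-11649673, plus strand): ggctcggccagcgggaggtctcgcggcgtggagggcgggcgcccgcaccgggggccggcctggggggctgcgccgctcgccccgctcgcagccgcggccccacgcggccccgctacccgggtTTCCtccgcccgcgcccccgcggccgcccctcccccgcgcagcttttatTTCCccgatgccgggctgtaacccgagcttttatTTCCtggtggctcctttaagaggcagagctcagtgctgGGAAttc
The core occurs 3 times in the ETS2 window, 3 times in the ETV1 window and 4 times in the ETV6 window. Over 35116 windows of the same length, 92.7% hold at least 1 core and the median is 3, so the 3 windows are near the genome's usual number. The longer ETS consensus CCGGAAGT, which contains the core and was searched on both strands, is in 3.42% of all windows and in none of the 13 windows of these 4 genes. The E-box CACGTG, the same on both strands, is in 6.34% of all windows and in 1 of the 13, the ETV1 window shown. A match describes the letters only.

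Depth ran from 15424512 to 27366499 counts per library, and 23493 genes passed the filter. Levels are CPM, read counts scaled to a common TMM-adjusted library size, where TMM scaling sets the typical gene equal between libraries. The TMM factors differed between the treatments of KMS-12, 1.23 in both DMSO libraries against 0.724 and 0.718 with JQ1, so changes in that line depend most on the scaling. With library size alone, the median gene of KMS-12 fell by 0.82 on the log2 scale with JQ1, against -0.06 with TMM, and the share of calls that were higher went from 44.0% to 7.49%. The same median went from 0 to -0.25 in KMS-11 and from -0.03 to -0.05 in RPMI8226, and the higher share from 45.0% to 23.8% and from 42.2% to 39.4%. Changes below are relative to the typical gene of a line, since no spike-in was used. The 8 plasma cell markers summed to between 1580 and 4028 CPM in every library. The summed level of B cell, T cell, endothelial, megakaryocyte and myeloid markers reached at most 13.6 CPM, and PF4, PPBP, GP1BA, CDH5 and TEK had no read in any library. In each line the treated libraries had lower B and T cell marker sums than the controls, such as T cell markers in KMS-12 (13.3 to 13.6 CPM with DMSO, 1.26 to 1.36 CPM with JQ1), and their part in the results was not tested. Of the 8 plasma cell markers, 1 was called higher in the average, PRDM1 at 1.18 (all genes: 22.3%). Called lower were 3 (all genes: 26.7%), TNFRSF17 at -4.05, SLAMF7 at -4.39 and MZB1 at -1.93. In KMS-12 4 were higher and 3 lower (all genes with TMM: 20.2% and 25.7%). With library size alone 1 was higher and 3 lower there, against 1035 and 12780 of all 23493 genes. The sum of the 8 markers was 2268 to 2283 CPM with DMSO and 3967 to 4028 CPM with JQ1 in KMS-12. It was lower with JQ1 in the other lines.

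The untreated lines carried different sets of these factors (plot of the makeup by group). Per kilobase of exon, the scale on which genes can be compared, ETS1 made up 46.2% of the summed level of the 9 genes in KMS-11 with DMSO, FLI1 20.7% and ETV6 20.6%. In KMS-12 the order was ETV6 with 33.4%, ETS1 with 24.2%, FLI1 with 24.2% and ETV4 with 18.2%. In RPMI8226 ETV5 led with 40.8%, before ETV6 with 18.9%, ETV4 with 14.1%, FLI1 with 13.5% and ETS2 with 8.63%, and ETS1 was down at 0.615%. KMS-11 was thus led by an ETS group factor, RPMI8226 by the PEA3 group, and KMS-12 by ETV6. The summed level of the 9 genes was 42.6 CPM per kilobase for KMS-11, 38.3 for KMS-12 and 71.5 for RPMI8226. With JQ1 the leading gene of each line was the same, at 61.4% for ETS1 in KMS-11, 47.2% for ETV6 in KMS-12 and 47.4% for ETV5 in RPMI8226.

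**Figure D1:**
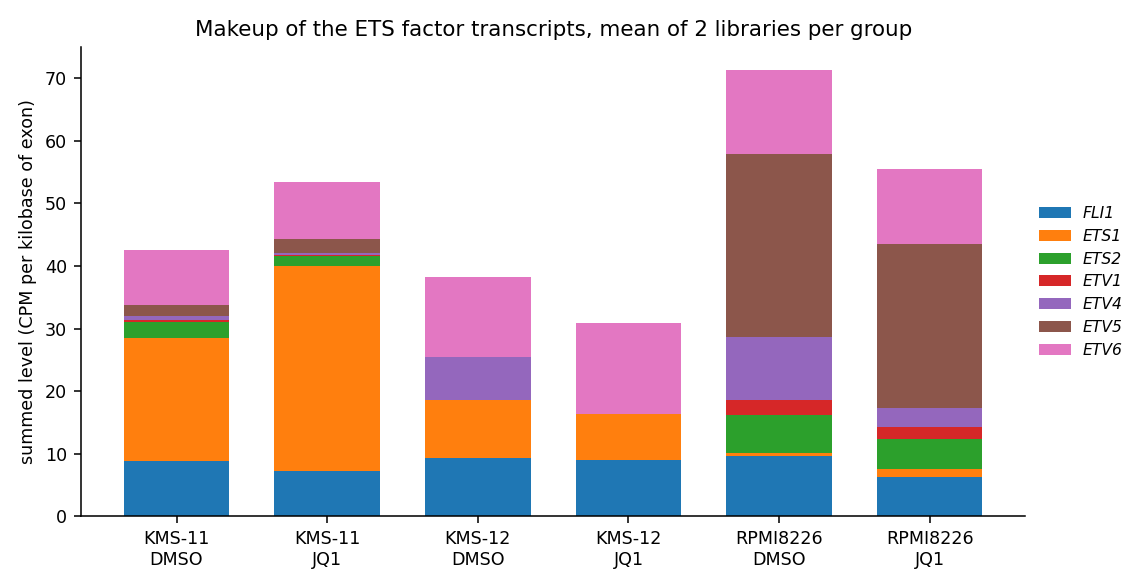
Stacked bars give the level of 7 ETS factors in CPM per kilobase of exon, as the mean of 2 libraries, for each line with DMSO and with JQ1; ERG (no read) and ETV7 (9 reads in all) are left out. ETS1 is the largest part of both KMS-11 bars, ETV5 of both RPMI8226 bars, and the ETV4 part of KMS-12 (18.2% with DMSO) is missing with JQ1.

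Of the 7 genes tested, 6 differed between the DMSO libraries of the 3 lines (edgeR quasi-likelihood F test, Benjamini-Hochberg adjusted p under 0.05), as did 80.2% of all genes tested (62.9% for KMS-12 against KMS-11, 58.2% for RPMI8226 against KMS-11 and 62.5% for RPMI8226 against KMS-12). FLI1 was the exception, with an adjusted p of 0.696, though RPMI8226 minus KMS-11 was called without replicate 2 of KMS-11 DMSO (0.35, adjusted p = 0.0444). With JQ1, 3 of the 7 were called in KMS-11, 1 higher and 2 lower (background over all genes 38.5%, of which 17.3% higher and 21.2% lower). In KMS-12 1 was called, lower (background 46%, 20.2% higher and 25.7% lower), and RPMI8226 had 3, 1 higher and 2 lower (background 32.2%, 13.6% higher and 18.6% lower). In the average of the 3 lines 3 were called, ETS1 higher and FLI1 and ETV4 lower (background 49%, of which 22.3% higher and 26.7% lower). The response differed between the lines for ETS1 and ETV4, 2 of 7 against a background of 30.1% (20% for KMS-12 minus KMS-11, 11.4% for RPMI8226 minus KMS-11 and 23.4% for RPMI8226 minus KMS-12). The KMS-12 count of 1 of 7 lies below its background. In that line ETS2 had no read and ETV1 and ETV5 had at most 2 reads per library, so their changes could hardly be called. This also limits the average and the response test of these genes. No difference of these shares from the background was tested, and the results below are about single genes.

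**Figure D2:**
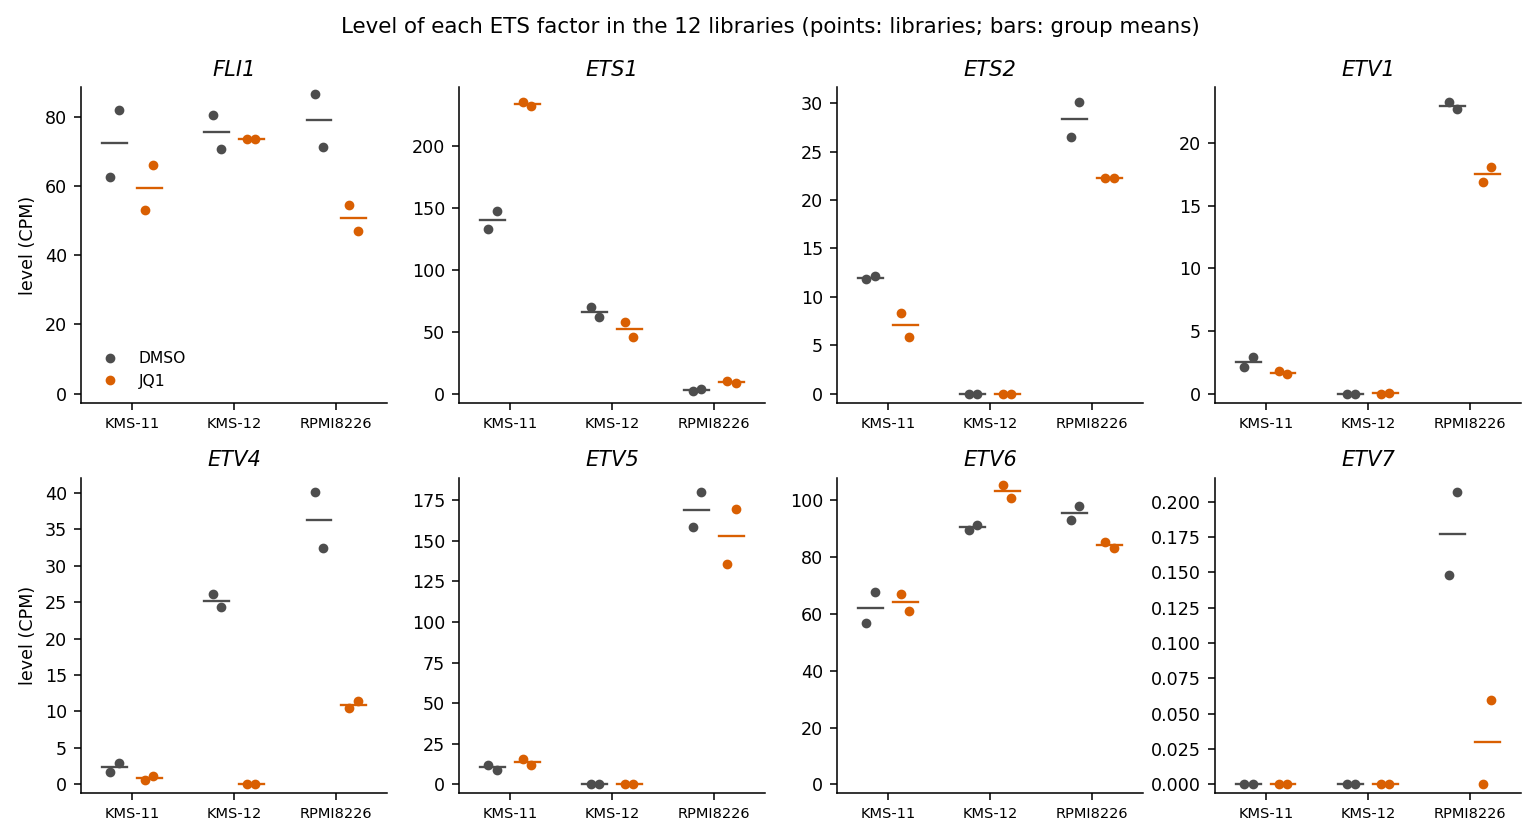
Each panel gives 1 ETS factor, with the level in CPM on a linear axis that differs between panels; points are libraries (grey DMSO, orange JQ1) and bars are means of 2 libraries. FLI1 and ETV6 are present in every library, ETS1 is high in KMS-11 and low in RPMI8226, and ETS2, ETV1 and ETV5 are at or near 0 in KMS-12.

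FLI1 (ENSG00000151702, chr11:128686535-128813267, plus strand, GENCODE 29 on GRCh38) was present in every library and fell with JQ1 in 1 line. In KMS-11 its level was 62.6 and 82.0 CPM with DMSO and 53.1 and 65.9 CPM with JQ1. In KMS-12 it was 80.6 and 70.6 CPM with DMSO and 73.6 and 73.5 CPM with JQ1. In RPMI8226 it was 86.5 and 71.3 CPM with DMSO and 54.4 and 47.0 CPM with JQ1. The treated libraries lay below both controls in RPMI8226 only, where treated and control libraries did not overlap for 65.8% of all genes tested. They overlapped the controls in KMS-11 and lay between them in KMS-12. FLI1 fell in RPMI8226 by 0.64 on the log2 scale (SE 0.14, 1.55-fold, adjusted p = 0.00303). The change was -0.28 (SE 0.14, adjusted p = 0.136) in KMS-11, which was called with the replicate number of each line as a block (adjusted p = 0.0188) and without replicate 1 of KMS-11 DMSO (-0.47, adjusted p = 0.0155). In KMS-12 it was -0.04 (SE 0.14, adjusted p = 0.885). The average over the lines was -0.32 (SE 0.08, adjusted p = 0.00401). An average over KMS-11 and RPMI8226 alone, added after the data were seen, was -0.46 (SE 0.10). It leaves out KMS-12, the line with the smallest FLI1 change.

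The responses of FLI1 in the 3 lines were not called different as a whole (adjusted p = 0.0858; 0.00422 with the block within lines, and 0.00882 to 0.0487 without replicate 1 or 2 of KMS-11 DMSO or replicate 1 of KMS-11 JQ1), while RPMI8226 minus KMS-12 gave -0.59 (SE 0.20, adjusted p = 0.0434). That difference lost its call in 9 of 22 alternatives, without replicate 2 of KMS-12 DMSO, either KMS-12 JQ1 library, replicate 1 of RPMI8226 DMSO or replicate 2 of RPMI8226 JQ1 among them (-0.45 to -0.60), and the block over all libraries gave an adjusted p of 0.0592. With library size alone FLI1 was lower in every line, by -0.54 in KMS-11 and by -0.81 in KMS-12, close to the median of all genes in KMS-12, and the difference between RPMI8226 and KMS-12 turned to 0.15. SENCR, a non-coding gene on the opposite strand that overlaps FLI1, had 29 and 47 reads in KMS-12 with DMSO and 11 and 3 with JQ1, and at most 15 reads in any other library. Whether the counting used the strand is not given in the sources used here, so these reads and those of FLI1 may be mixed, at less than the level of FLI1 (792 to 2265 reads).

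ERG, the closest relative of FLI1 (ENSG00000157554, chr21:38380027-38661780, minus strand), had 0 reads in all 12 libraries. A count of 0 allows 3 counts, or 0.107 to 0.178 CPM per library, for counting error only. No JQ1 response of ERG could be measured.

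ETS1 (ENSG00000134954, chr11:128458761-128587558, minus strand, next to FLI1 on the chromosome) rose with JQ1 in 2 lines and had a different response in the third. In KMS-11 its level was 133 and 148 CPM with DMSO and 236 and 233 CPM with JQ1. In RPMI8226 it was 2.32 and 3.97 CPM with DMSO and 10.5 and 8.67 CPM with JQ1. In KMS-12 it was 70.1 and 62.3 CPM with DMSO and 58.2 and 46.1 CPM with JQ1. Treated and control libraries did not overlap in any line, which held for 63.5% (KMS-11), 72.2% (KMS-12) and 65.8% (RPMI8226) of all genes tested. ETS1 rose by 0.74 (SE 0.15, 1.67-fold, adjusted p = 0.000902) in KMS-11 and by 1.59 (SE 0.20, 3.01-fold, adjusted p = 3.4e-05) in RPMI8226. In KMS-12 the change was -0.34 (SE 0.15, adjusted p = 0.0729), which was called in 8 of 23 alternatives, with the block within lines (adjusted p = 0.0421), with library size alone (-1.11) and without replicate 1 of KMS-12 JQ1 (-0.52, adjusted p = 0.0345) or either RPMI8226 DMSO library among them.

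The 3 responses of ETS1 differed (adjusted p = 9.53e-05). KMS-12 minus KMS-11 was -1.08 (SE 0.21, adjusted p = 0.00164) and RPMI8226 minus KMS-12 was 1.94 (SE 0.25, adjusted p = 5.56e-05). RPMI8226 minus KMS-11 was 0.86 (SE 0.25, adjusted p = 0.0396), a call lost in 11 of 22 alternatives. These include leaving out either replicate of KMS-11 DMSO, KMS-11 JQ1 or KMS-12 DMSO, or replicate 1 of RPMI8226 DMSO or JQ1. Without replicate 1 of RPMI8226 DMSO the difference was 0.54 (adjusted p = 0.202), and the replicate block over all libraries gave an adjusted p of 0.0559. The highest of the 3 responses was in the line with the least ETS1. The DMSO level of RPMI8226 was 44.0-fold below KMS-11 and 20.7-fold below KMS-12, and after JQ1 it was 9.58 ± 1.30 CPM (SD, n = 2), below the 140.7 ± 10.4 CPM of untreated KMS-11. KMS-12 lay 2.13-fold below KMS-11 (log2 difference -1.09, SE 0.15).

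ETS2 (ENSG00000157557, chr21:38805307-38824955, plus strand), the paralogue of ETS1 whose promoter is printed above, was lower with JQ1 in KMS-11 and had no read in KMS-12. It was at 11.8 and 12.1 CPM in KMS-11 with DMSO and 8.37 and 5.83 CPM with JQ1. In RPMI8226 it was at 26.5 and 30.1 CPM with DMSO and 22.2 and 22.3 CPM with JQ1. The treated libraries lay below the controls in both lines, where 63.5% (KMS-11) and 65.8% (RPMI8226) of all genes tested had no overlap. The fall was called in KMS-11 (-0.75, SE 0.19, 1.68-fold, adjusted p = 0.00609; -0.51 and 0.0899 without replicate 2 of KMS-11 JQ1) and the change of RPMI8226 was not (-0.35, SE 0.18, adjusted p = 0.157). The RPMI8226 change was called with limma-voom (adjusted p = 0.0493) and with the 4 libraries of the line alone (adjusted p = 0.0475). Over both lines the average was -0.55 (SE 0.13, adjusted p = 0.0031), an average added after the empty KMS-12 libraries were seen. In the 4 KMS-12 libraries ETS2 had 0 reads against 587 in the KMS-11 and 1267 in the RPMI8226 controls, at least 221-fold and at least 528-fold lower with a floor of 3 counts over the group. It was thus 1 of 1515 tested genes with no read in KMS-12. RPMI8226 had 2.37-fold more ETS2 than KMS-11 (log2 difference 1.24, SE 0.18).

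The PEA3 group was present as a whole in RPMI8226, was low in KMS-11, and was represented by ETV4 alone in KMS-12. ETV4 (ENSG00000175832, chr17:43527844-43579620, minus strand) fell with JQ1 in every line, and in KMS-12 it fell to no read. In KMS-12 the libraries held 732 and 668 reads with DMSO (26.1 and 24.3 CPM) and 0 and 0 with JQ1. In RPMI8226 they held 812 and 786 reads with DMSO (40.1 and 32.5 CPM) and 222 and 192 with JQ1 (10.4 and 11.4 CPM). In KMS-11 they held 43 and 69 reads with DMSO (1.66 and 2.97 CPM) and 13 and 21 with JQ1 (0.618 and 1.18 CPM). In each line both treated libraries were below both controls. A lack of overlap held for 63.5% (KMS-11), 72.2% (KMS-12) and 65.8% (RPMI8226) of all genes tested. Treated KMS-12 was at least 326-fold below its controls, with a floor of 3 counts over the group (at least 556-fold with library size alone; adjusted p = 1.8e-10). The fall was 3.33-fold in RPMI8226 (-1.73, SE 0.22, adjusted p = 1.61e-05) and 2.6-fold in KMS-11 (-1.38, SE 0.34, adjusted p = 0.00373). In KMS-11, on the fewest reads, the call was lost without replicate 2 of DMSO (-0.90, adjusted p = 0.0561), without replicate 1 of JQ1 (-0.96, adjusted p = 0.0675) and with the 4 libraries of the line alone (adjusted p = 0.0523).

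The response of ETV4 differed between the lines (adjusted p = 1.88e-07), and KMS-12 differed from KMS-11 (adjusted p = 6.81e-07) and from RPMI8226 (adjusted p = 1.45e-07). RPMI8226 minus KMS-11 was -0.36 (SE 0.42, adjusted p = 0.707), so those responses were not told apart at this precision. Among the 9853 genes with at least 10 CPM in the KMS-12 controls, ETV4 was the 1 with no read in either treated library, 0.00426% of all genes tested, a threshold chosen after ETV4 had been seen at 0. At a minimum of 1 CPM there were 36 such genes of 15662, at 5 CPM 3 of 11519 and at 20 CPM 1 of 7641. At 10 CPM there was 1 such gene of 9652 in KMS-11 and 0 of 9957 in RPMI8226. DHX8, an RNA helicase gene on the opposite strand whose exons overlap ETV4, had 4041 and 4219 reads in KMS-12 with DMSO and 4076 and 3964 with JQ1, so the reads of DHX8 were not counted for ETV4 in the treated libraries. In bulk RNA, fewer cells with a transcript and less of it per cell cannot be told apart. The DMSO level of ETV4 was 10.9-fold higher in KMS-12 than in KMS-11 (log2 difference 3.45, SE 0.25) and 15.7-fold higher in RPMI8226 than in KMS-11. RPMI8226 exceeded KMS-12 by 0.53 (SE 0.21, adjusted p = 0.0355), a call lost without replicate 1 of RPMI8226 DMSO (0.37, adjusted p = 0.259), without either DMSO library of KMS-12, with library size alone (0.37, adjusted p = 0.115) and against a fold of 1.5 (adjusted p = 0.527).

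**Figure D3:**
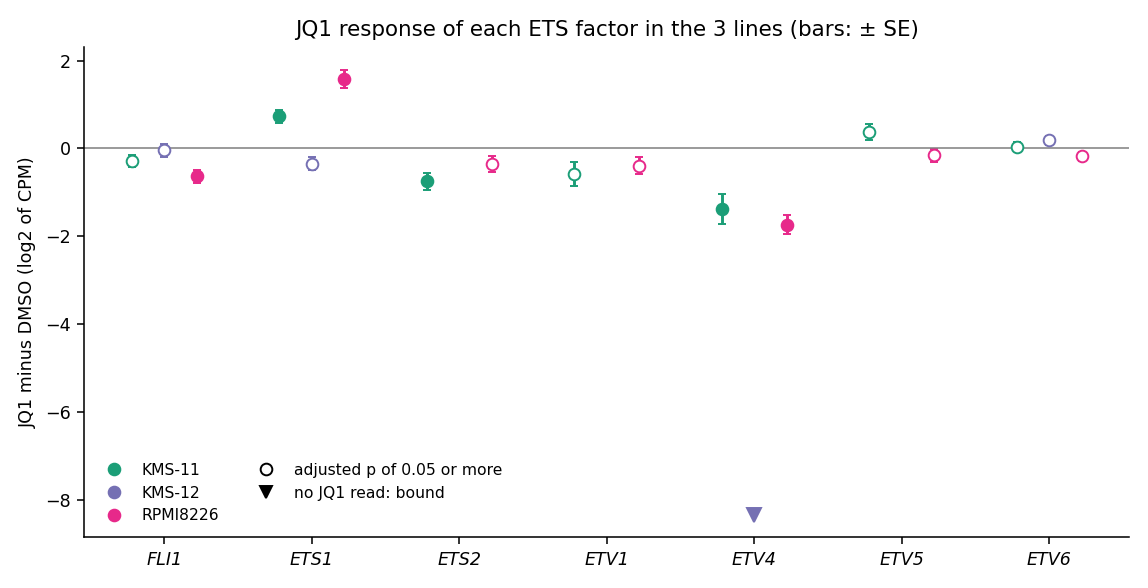
Points give the JQ1 minus DMSO difference (log2 of CPM, bars ± SE) of 7 ETS factors in each line; filled points are called, open points are not, and the triangle is the bound for ETV4 in KMS-12, where no JQ1 read was found. ETS1 lies above 0 in KMS-11 and RPMI8226 and below 0 in KMS-12, ETV4 lies below 0 in all lines, and ETS2, ETV1 and ETV5 have no KMS-12 point because of too few reads. With library size alone the KMS-12 points move by about the shift of the median gene, so that ETV6 in KMS-12 turns to -0.58.

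ETV1 and ETV5, the other PEA3 factors, were not called in any single line in the main fit. ETV5 (ENSG00000244405, chr3:186046308-186110318, minus strand) was at 159 and 180 CPM in RPMI8226 with DMSO and 136 and 169 CPM with JQ1. In KMS-11 it was at 11.9 and 9.03 CPM with DMSO and 15.6 and 11.6 CPM with JQ1. In KMS-12 it had 2 and 1 reads with DMSO and 1 and 0 with JQ1. Treated and control libraries overlapped in RPMI8226 and in KMS-11. The change was -0.15 (SE 0.15, adjusted p = 0.49) in RPMI8226 and 0.38 (SE 0.17, adjusted p = 0.103) in KMS-11, where it was called with the block within lines (adjusted p = 0.0125) and without replicate 1 of KMS-11 DMSO (0.60, adjusted p = 0.0277) or replicate 2 of KMS-11 JQ1 (0.57, adjusted p = 0.0268). That block also called the difference between both responses (adjusted p = 0.0183) and the difference over all lines (adjusted p = 0.0199). The RPMI8226 controls held 16.1-fold more ETV5 than those of KMS-11 (log2 difference 4.01, SE 0.17). DGKG, a diacylglycerol kinase gene that overlaps ETV5 on the same strand, had 470 and 563 reads in RPMI8226 with DMSO and 118 and 163 with JQ1, against 2855 to 4351 reads of ETV5 in that line.

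ETV1 (ENSG00000006468, chr7:13891228-13991425, minus strand) was at 23.3 and 22.7 CPM in RPMI8226 with DMSO and 16.9 and 18.1 CPM with JQ1. In KMS-11 it was at 2.17 and 2.92 CPM with DMSO and 1.81 and 1.57 CPM with JQ1. In KMS-12 it had 1 read in 4 libraries. The treated libraries were below the controls in KMS-11 and RPMI8226, where 63.5% and 65.8% of all genes tested had no overlap. Neither change was called: -0.40 (SE 0.20, adjusted p = 0.139) in RPMI8226 and -0.58 (SE 0.26, adjusted p = 0.0954) in KMS-11 (-0.79 without replicate 1 of its DMSO). The RPMI8226 change was called with limma-voom (adjusted p = 0.0371) and with the 4 libraries of the line alone (adjusted p = 0.033). That of KMS-11 was called with library size alone (-0.84, adjusted p = 0.017). The average of both lines, added after the data were seen, was -0.49 (SE 0.16, adjusted p = 0.0233). ETV1 was 9.05-fold higher in RPMI8226 than in KMS-11, and at least 425-fold and 46.8-fold lower in the KMS-12 controls than in the RPMI8226 and KMS-11 controls.

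In the TEL group, ETV6 (ENSG00000139083, chr12:11649854-11895402, plus strand), a repressor known from leukaemia fusion genes, was read in every library, at 56.6 to 105 CPM. It was at 56.6 and 67.7 CPM in KMS-11 with DMSO and 67.2 and 60.9 CPM with JQ1. In KMS-12 it was at 89.6 and 91.5 CPM with DMSO and 105 and 101 CPM with JQ1. In RPMI8226 it was at 93.1 and 98.0 CPM with DMSO and 85.4 and 83.2 CPM with JQ1. The treated libraries lay above the controls in KMS-12, below them in RPMI8226 and among them in KMS-11. A lack of overlap held for 72.2% of all genes tested in KMS-12 and 65.8% in RPMI8226. None of these changes was called: 0.04 (SE 0.10, adjusted p = 0.806) in KMS-11, 0.19 (SE 0.10, adjusted p = 0.134) in KMS-12 and -0.18 (SE 0.10, adjusted p = 0.184) in RPMI8226. The KMS-12 change was called with the 4 libraries of the line alone (0.23, adjusted p = 0.00521). With library size alone it was called in the other direction (-0.58, adjusted p = 2.98e-05). The responses of ETV6 differed between the lines without replicate 1 (adjusted p = 0.0468) or 2 (adjusted p = 0.0221) of KMS-11 DMSO, and not in the full set (adjusted p = 0.129). With library size alone the average over the lines turned from 0.02 to -0.34 (adjusted p = 3.46e-05). The DMSO level was lower in KMS-11 than in KMS-12 (by 1.46-fold) and than in RPMI8226 (by 1.54-fold), and the latter pair did not differ beyond its spread (0.08, SE 0.10). ETV7 (ENSG00000010030, chr6:36354091-36387800), the other TEL factor, had 9 reads in all, 3 and 5 in RPMI8226 with DMSO and 0 and 1 with JQ1, and was not tested.

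Lists of genes around these factors were described with the same fit (plot of calls by list). Their counts in the average depend on the scaling. With library size alone, 2116 of all 23493 genes tested were higher in the average and 10351 lower. The list counts then go to 1 higher and 11 lower for the other ETS genes, 1 and 7 for the regulators and 7 and 9 for the partners. They go to 1 and 10 for the RAS-ERK cascade, 4 and 7 for the ERK output genes and 0 and 6 for the FLI1 and ERG targets. Of 19 other ETS family genes 14 were tested, and 2 were called higher and 6 lower in the average of the lines, where 22.3% of all genes tested were higher and 26.7% lower. ELF3, an epithelial ETS factor, rose from 2.05 and 0.602 to 7.51 and 4.71 CPM in KMS-11 and from 1.21 and 0.946 to 16.0 and 14.1 CPM in KMS-12. It fell in RPMI8226 from 16.8 and 24.0 to 10.5 and 9.56 CPM (log2 changes 2.18, 3.80 and -1.03, adjusted p = 0.000884, 5.71e-06 and 0.0282). ELF4 fell in KMS-11 (-2.27, adjusted p = 6.94e-07) and RPMI8226 (-0.56, adjusted p = 0.0202), and its KMS-12 value of 0.39 (adjusted p = 0.0765) turned to -0.38 with library size alone. ERF, an ETS repressor that ERK inactivates, fell in KMS-11 (-1.39, adjusted p = 4.07e-05) and KMS-12 (-0.60, adjusted p = 0.0217), with -0.40 (adjusted p = 0.137) in RPMI8226. GABPA, the DNA-binding part of GABP, fell in KMS-11 (-0.70, adjusted p = 2.2e-05). In RPMI8226 the list's median was -0.49 against -0.03 for all genes, with 0 higher and 5 lower (all genes: 13.6% and 18.6%). In KMS-12 it was 0.10 against -0.06, with 6 higher and 3 lower (all genes: 20.2% and 25.7%). With library size alone the KMS-12 counts were 2 and 6, against 1035 and 12780 of all 23493 genes. In KMS-11 the list's median was -0.18 against 0, with 2 higher and 4 lower (all genes: 17.3% and 21.2%).

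Among 12 genes listed as regulators of ETS factors, of their transcripts or their proteins, 3 were higher and 2 lower in the average (all genes: 22.3% higher, 26.7% lower). CUL4A, the scaffold of the ubiquitin ligase that COP1 works with, fell in each line (-0.56 in KMS-11, -0.83 in KMS-12, -0.47 in RPMI8226, the order used below). DDB1, its adaptor, was higher in the average by 0.57 (adjusted p = 2.24e-06) and USP9X, a deubiquitinase, by 0.46 (adjusted p = 2.98e-06), with 0.11 (adjusted p = 0.095) for USP9X under library size alone. CUL4B was lower by -0.19 (adjusted p = 0.0246). Of 22 partner proteins 20 were tested, 10 higher and 6 lower in the average, against the same shares of all genes. FOSL2, an AP-1 subunit, fell in each line (-1.96, -1.87 and -2.60), and RUNX2, a partner of ETS1, fell in RPMI8226 (-2.65, adjusted p = 2.42e-09) with -0.27 and -0.20 in KMS-11 and KMS-12 (adjusted p = 0.068 and 0.143). JUNB rose in KMS-11 (1.18) and KMS-12 (1.79), with 0.09 (adjusted p = 0.699) in RPMI8226. HDAC3 rose in each line (0.86, 0.98 and 0.55), a call lost in KMS-12 with library size alone (0.21, adjusted p = 0.103). In RPMI8226 the medians were -0.02 for the regulators and 0.12 for the partners, against -0.03 for all genes.

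The RAS-ERK cascade and its output genes, the setting in which PEA3 transcripts are known to be induced, had calls in both directions. Of 18 cascade genes 6 were higher and 3 lower in the average (all genes: 22.3% and 26.7%), with MAPK3 (ERK1) lower in each line (-1.94, -1.80 and -0.66). ARAF was higher by 0.61 and FRS2 by 0.37, and with library size alone FRS2 was at 0.02. Of 16 output genes 15 were tested, 5 higher and 5 lower. SPRY1, a feedback inhibitor of receptor signalling, fell in each line (-1.92, -3.22 and -0.91). DUSP5, a nuclear ERK phosphatase, went from 17.4 and 16.1 to 352 and 340 CPM in KMS-12 (4.37, adjusted p = 1.4e-12), with 0.14 and -0.02 in KMS-11 and RPMI8226. IER3 rose in KMS-11 (1.79) and KMS-12 (1.95), with 0.32 (adjusted p = 0.405) in RPMI8226, and PHLDA1 rose in KMS-11 (0.75) and KMS-12 (1.26). Cascade and output medians in RPMI8226 were 0.01 and 0 against -0.03.

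Chosen after their values were seen, other output genes are set beside the PEA3 factors. DUSP6 was at 37.5 and 38.4 CPM in RPMI8226 with DMSO, 6.61 and 4.95 CPM in KMS-11 and 0.249 and 0.546 CPM in KMS-12. SPRY4 was at 32.3 and 27.2 CPM in RPMI8226 with DMSO, 0.696 and 1.16 CPM in KMS-11 and 0 reads in KMS-12. Both were in the order of ETV5 and ETV1, RPMI8226 above KMS-11 above KMS-12, whereas ETV4 was higher in KMS-12 than in KMS-11. Other output genes had other orders in the controls: SPRY1 was at 30.4 and 27.7 CPM in KMS-11, 12.5 and 9.64 CPM in KMS-12 and 8.88 and 7.07 CPM in RPMI8226. DUSP4 was at 32.3 and 29.7 CPM in KMS-11 and 33.7 and 32.9 CPM in RPMI8226, with 0 reads in KMS-12, and SPRY2 had reads in KMS-11 alone (1.28 and 0.989 CPM). With JQ1 DUSP6 was at 52.3 and 51.0 CPM and SPRY4 at 32.5 and 33.8 CPM in RPMI8226, where ETV4 fell 3.33-fold.

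**Figure D4:**
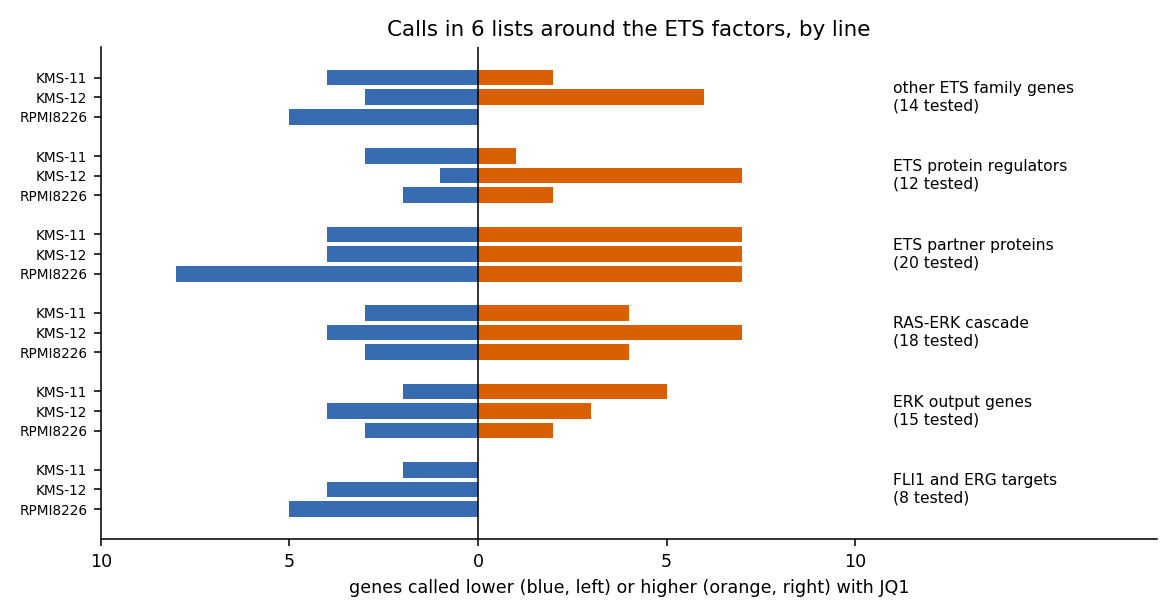
For 6 lists and each line, bars give the number of genes called lower (left, blue) and higher (right, orange) with JQ1, out of the number tested. The FLI1 and ERG target list has 0 genes higher in each line and 2 (KMS-11), 4 (KMS-12) and 5 (RPMI8226) lower. With library size alone the KMS-12 calls of the regulators go from 7 higher and 1 lower to 1 higher and 6 lower. Those of the RAS-ERK cascade go from 7 and 4 to 0 and 15. Of all 23493 genes, 1035 are then higher and 12780 lower in KMS-12.

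Of 20 genes known as FLI1 and ERG targets in endothelium and platelets, 5 had no read in any library and 8 were tested. None was higher and 4 were lower in the average (all genes: 22.3% higher, 26.7% lower), and the medians were -0.03 (KMS-11), -2.36 (KMS-12) and -0.87 (RPMI8226), against 0, -0.06 and -0.03 for all genes. PECAM1, an adhesion molecule that plasma cells also carry, went from 5.95 and 6.41 to 0.761 and 0.897 CPM in KMS-11, from 1.82 and 1.02 to 0.303 and 0.0526 CPM in KMS-12 and from 5.38 and 3.89 to 0.188 and 0.178 CPM in RPMI8226. NOS3, the endothelial nitric oxide synthase, went from 8.58 and 5.89 to 0.202 and 0.684 CPM in KMS-12 and from 6.36 and 8.14 to 0.75 and 0.772 CPM in RPMI8226. Both fell in each line (PECAM1 by -2.90, -2.94 and -4.61, NOS3 by -2.65, -4.03 and -3.25). In KMS-11 NOS3 had 21 and 20 reads with DMSO and 5 and 0 with JQ1, so its change there rests on few reads. EGFL7 fell in KMS-12 (-2.32) and RPMI8226 (-0.68) and had 9 reads in the 4 KMS-11 libraries. GP6 fell in RPMI8226 (-1.06, adjusted p = 0.0171) and was at -0.36 and -1.37 in KMS-11 and KMS-12 (adjusted p = 0.548 and 0.115). The treated libraries also had lower sums of endothelial markers, a list that PECAM1 leads, at 0.105 to 0.897 CPM against 1.09 to 7.01 CPM with DMSO, and its part in the result was not tested.

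The genes whose pattern over the 12 libraries was nearest to each factor were found by the root mean square difference of gene-centred log2 CPM among 16947 genes. For FLI1 they included TLE5, MAU2 and PQBP1, at 0.146 to 0.16, where the median gene was at 0.723. For ETV6 they were EIF1AD and UBE3A (both at 0.11), for ETS1 CCT4P2 and ASPH (0.43 and 0.45), for ETS2 SPART and PMEPA1 (0.29 and 0.32), for ETV1 FGF9 and STAT4 (0.38 for both) and for ETV5 MBP and TBC1D9 (0.51 and 0.56). For ETV4 they were PRR7-AS1 and AIF1L (1.17 and 1.18), where the median gene was at 3.10. A gene that varies more over the libraries has larger differences to all others, so the values are not ranked between factors. The libraries are the same for all genes, and the measure is a description with no test.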

How the data were processed

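RNA was measured in 12 libraries of 3 lines, made per the labels' protocols from total RNA with a stranded kit after removal of ribosomal RNA. The authors deposited raw read counts, whole numbers for 60666 Ensembl gene IDs in each library. The submitters' processing notes name hg38, GRCh38.p13, DESeq2 and MACS2 but no role for them. The strand setting, aligner, counter and annotation release were not given in the sources used here. Groups came from the titles. Symbols came from a gene name table (60437 IDs matched), and positions and exon lengths from GENCODE 29.

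In R 4.3.3, edgeR 4.0.16 was run on the counts: genes were kept by filterByExpr with the 6 groups (min.count of 10, min.total.count of 15), followed by TMM scaling, robust glmQLFit with 1 mean per group, glmQLFTest, Benjamini-Hochberg adjustment over 23493 genes and calls under 0.05. SE was taken from the log2 change and the root of its F statistic. Bounds use a floor of 3 counts over the group and cover counting error only, since reads are not independent molecules. Alternatives were other scalings, filters, DESeq2 1.42.0, limma-voom (limma 3.58.1), a test against 1.5-fold, replicate blocks and leaving out each library. The model was tested on simulated data.

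The members and lists were chosen with earlier results of these data known. Named genes were all 9 members, up to 4 genes per list with the smallest adjusted p for the average of the lines, and the nearest genes in pattern (5 for FLI1, 2 for each other member with a mean of at least 1 CPM); a few genes these rules select are not reported here. Same-numbered libraries of a line deviated together (correlation over 10130 genes KMS-11 0.158, KMS-12 0.102, RPMI8226 0.375). No label pairs these libraries, and whether the correlations reflect a pairing was not tested. The main fit used no pairing. Replicate numbers entered only through the replicate blocks among the alternatives. With the block within each line, the factors called went from 3 to 5 in KMS-11 and from 2 to 4 for the response. Over all 23493 genes the calls went from 9040 to 9637 and from 7070 to 8048. The 2 libraries of each group differed by more than sampling noise (chi-square per degree of freedom of 5.64 to 22.3).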

Additional observations from a re-analysis of the deposited data

Results flagged for a closer look

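The JQ1 response differed over the 3 lines for ETS1 and ETV4. For ETS1 the adjusted p of the edgeR quasi-likelihood F test over the 3 lines was 9.53e-05, with 0.00164 for KMS-12 minus KMS-11, 5.56e-05 for RPMI8226 minus KMS-12 and 0.0396 for RPMI8226 minus KMS-11. For ETV4 it was 1.88e-07 over the lines, with 6.81e-07 for KMS-12 minus KMS-11 and 1.45e-07 for RPMI8226 minus KMS-12. For FLI1 the test over the 3 lines was not passed (adjusted p = 0.0858), and the pairwise difference RPMI8226 minus KMS-12, at -0.59 with an adjusted p of 0.0434, lost its call in 9 of 22 alternatives and turned to 0.15 with library size alone. Each group had 2 libraries, too few to look for a single library that stands apart.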

How the results depend on the processing

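Of 1831 values of 84 results on single factors under the alternatives, 1722 kept their direction and their side of the threshold, 35 lost a call, 43 gained one and 31 turned in direction. With library size alone, KMS-11 had 5 factors called and KMS-12 had 4 (all genes: 9378 and 13815 of 23493). ETV6 turned to -0.34 (average), -0.21 (KMS-11) and -0.58 (KMS-12), and its response differences to -0.37 (KMS-12 minus KMS-11), 0.0025 (RPMI8226 minus KMS-11) and 0.37 (RPMI8226 minus KMS-12). FLI1 turned to -0.28 for KMS-12 minus KMS-11 and 0.15 for RPMI8226 minus KMS-12, and the DMSO difference RPMI8226 minus KMS-12 to -0.10 for FLI1 and -0.078 for ETV6. Without a filter 2 factors were called in KMS-12 and 4 differed in response (all genes: 10747 and 7773 of 40999). With limma-voom 2 were called in KMS-12 and 5 in RPMI8226 (all genes: 11157 and 7813 of 23493). With the replicate block within each line, 5 were called in KMS-11 (2 higher, 3 lower), 2 in KMS-12 and 4 differed in response. Of all 23493 genes, 9637, 11244 and 8048 were called in these comparisons with that block. Apart from the calls given in the report the blocks changed no other call of a factor. Against a fold of 1.5, 1 was called in the average and 1 in KMS-11. With the 4 libraries of the line alone 3 were called in KMS-12 (all genes: 12386 of 18808) and 5 in RPMI8226 (8226 of 19087). FLI1 in KMS-12 was then at 0.0020.

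Leaving out 1 library gave 3 calls each time in the average and in RPMI8226, 2 to 6 in KMS-11, 1 to 2 in KMS-12, 2 to 4 factors that differed in response and 6 each time that differed in DMSO level. It turned 11 results in direction, none of them called in the full set or where they turned: ETV6 in the average (-0.023 to 0.064) and in KMS-11 (-0.081 to 0.19), FLI1 in KMS-12 (-0.13 to 0.059), the DMSO differences of FLI1 (-0.12 to 0.27 for KMS-12 minus KMS-11, -0.061 to 0.35 for RPMI8226 minus KMS-11 and -0.081 to 0.20 for RPMI8226 minus KMS-12), RPMI8226 minus KMS-11 for ETV4 (-0.85 to 0.15) and ETV1 (-0.078 to 0.39), RPMI8226 minus KMS-12 for ETV5 (-0.067 to 3.26), and the average of ETV1 (-0.33 to 0.80) and ETV5 (-1.06 to 0.049). The 0.35 end for FLI1 is the value without replicate 2 of KMS-11 DMSO that was given above as called. The average of KMS-11 and RPMI8226, added after the data were seen, gave -0.49 for ETV1, 0.11 for ETV5 and -0.069 for ETV6. Over all genes, the test against 1.5-fold called 4155, 3940, 5612 and 2598 genes in the average, KMS-11, KMS-12 and RPMI8226, against 11509, 9040, 10804 and 7574, and library size alone called 11281 against 7070 genes that differed in response. The causes were not tested. Depth limits ERG, ETV7, and ETS2, ETV1 and ETV5 in KMS-12.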
